A study of Homo sapiens with 4 samples.

Results

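HOXB13 peaks at the HOXA, HOXC and HOXD gene clusters were described from 2 peak lists of chromatin immunoprecipitation with sequencing (ChIP-seq). A peak was counted at a cluster when its summit lay within 100 kb of the cluster in hg19, on chromosome 7 at 27132614 to 27239725 for HOXA, on chromosome 12 at 54332576 to 54449814 for HOXC and on chromosome 2 at 176957532 to 177055635 for HOXD. This gave 68 of 71556 peaks, 55 of 68049 in the GSK2879552 list and 13 of 3507 in the vehicle list. The cells were LNCaP, an established androgen-sensitive prostate cancer line, treated in RPMI1640 medium with a supplement labelled CSS. Expression of the HOX genes was not measured. One group was labelled as treated for 4 hours with 50 µM GSK2879552, which inhibits LSD1, a histone demethylase, and the other as vehicle. The treatment text names the inhibitor in all 4 samples, and only titles and descriptions give the vehicle group. Each group was 2 lanes, called technical replicates in the labels, with 1 peak list for both. There was thus 1 library per treatment and no error between cultures, no test of the treatments was possible, and the intervals below cover counting error only.

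The HOX genes encode homeodomain transcription factors that set position along the body axis, and in each cluster they lie in the order of their paralogue groups. Group 13 genes stand at one end of their cluster and act in the most posterior structures. HOXA13 and HOXD13 act in limb and urogenital development, HOXC13 in hair and nails, and HOXB13, the precipitated factor, in the prostate. HOXA13 lies at the high end of HOXA, HOXC13 at the low end of HOXC and HOXD13 at the low end of HOXD. Next to the group 13 genes lie the homeobox gene EVX1 beyond HOXA13 and EVX2 beyond HOXD13. Distances below are counted from these group 13 ends into the cluster, and the end is not a start site read from an annotation. The other genes were not placed on the peaks, since no hg19 annotation was used.

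The promoter bases of the genes at these ends are shown because the results turn on how near to them peaks came. RefSeq promoters (GRCh38.p14) were found for 21 of 31 genes listed, namely 9 of 11 HOXA genes, 8 of 9 HOXD genes, 2 of 9 HOXC genes, EVX1 and EVX2. HOXC13 was among the genes without an entry. HOXC4 and HOXC5 have the same promoter sequence, listed once for each and counted as 2 below, which is shown as the HOXC example. The 250 bases before the start are printed 5′ to 3′ and their coordinates cannot be set beside the hg19 peaks. Capitals mark CAATAAA and CGTAAA on either strand, the cores of the HOXB13 motifs CCAATAAA and CTCGTAAA.
HOXA13 promoter, GRCh38.p14 chr7:27200092-27200341, minus strand: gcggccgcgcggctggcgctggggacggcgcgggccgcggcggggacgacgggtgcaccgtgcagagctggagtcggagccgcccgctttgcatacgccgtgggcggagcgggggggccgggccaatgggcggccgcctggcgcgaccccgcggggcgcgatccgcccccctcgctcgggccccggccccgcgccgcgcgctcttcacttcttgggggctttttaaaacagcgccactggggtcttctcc
HOXD13 promoter, GRCh38.p14 chr2:176092471-176092720, plus strand: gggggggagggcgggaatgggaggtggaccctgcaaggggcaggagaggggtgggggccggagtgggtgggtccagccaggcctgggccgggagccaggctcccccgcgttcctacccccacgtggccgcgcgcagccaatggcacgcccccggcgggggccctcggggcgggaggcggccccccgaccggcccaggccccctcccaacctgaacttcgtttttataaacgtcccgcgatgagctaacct
EVX2 promoter, GRCh38.p14 chr2:176083963-176084212, minus strand: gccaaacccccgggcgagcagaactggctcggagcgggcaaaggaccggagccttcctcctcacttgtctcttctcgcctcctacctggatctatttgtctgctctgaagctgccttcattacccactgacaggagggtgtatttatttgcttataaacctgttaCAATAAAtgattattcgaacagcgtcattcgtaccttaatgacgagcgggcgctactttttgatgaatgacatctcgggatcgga
HOXC4 promoter, GRCh38.p14 chr12:54016638-54016887, plus strand: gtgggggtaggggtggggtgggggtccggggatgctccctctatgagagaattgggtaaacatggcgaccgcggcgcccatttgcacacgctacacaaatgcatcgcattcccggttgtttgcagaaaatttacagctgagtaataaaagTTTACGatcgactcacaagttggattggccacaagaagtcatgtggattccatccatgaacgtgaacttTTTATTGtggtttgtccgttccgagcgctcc

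Neither HOXA13 nor HOXD13 had a match to CAATAAA or CGTAAA in these 250 bases, and neither held CCAATAAA or CTCGTAAA, which contain them. Among all promoters searched, CAATAAA occurred in 2 of 16 of HOXA (both of HOXA3), none of 8 of HOXD and that of EVX2. CGTAAA occurred in 1 of 16 of HOXA (HOXA9), none of 8 of HOXD and not in EVX2. The sequence shared by HOXC4 and HOXC5 held both cores, and that of EVX1 neither. CAATAAA occurred in 3.66% and CGTAAA in 2.68% of all 35116 promoters, on either strand. The full CCAATAAA occurred in 0.863% and CTCGTAAA in 0.117% of all promoters, and in none of the 16 HOXA, 2 HOXC and 8 HOXD promoters searched. GC content was 78.0% in the HOXA13, 74.0% in the HOXD13, 50.0% in the EVX2 and 50.8% in the HOXC4 promoter, beside a median of 58.0% over all promoters. A match or its lack is a description of these letters only. The sequence under the peaks was not analysed here.

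Each peak carries the authors' fold enrichment, the ratio of the pileup of tags at its summit to the local background. The pileup (overlapping extended tags) and the local background were solved from this fold and the p-value. Whether that background came from an input control is not given. It may hold tags of the peaks themselves, and is then not separate from their number and height. Genome-wide, the commonest background was 2.79 tags a position with GSK2879552 and 0.443 with vehicle, and the list with the lower background was also the shorter one. Depth and treatment cannot be told apart here. The lowest pileup in a list was 10 with GSK2879552 and 5 with vehicle. A site without a vehicle peak was not called at that depth and is not shown to be unbound.

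As counted in the full lists, with 1 library each, HOXB13 peaks were more numerous in the HOXA and HOXC windows than in the HOXD window. In the GSK2879552 list 23 peaks lay in the HOXA window (exact 95% Poisson interval 14.6 to 34.5), 25 in the HOXC window (16.2 to 36.9) and 7 in the HOXD window (2.81 to 14.4). This came to 74.9, 78.8 and 23.5 peaks per Mb. Per Mb, the interval of HOXC (51.0 to 116) lay above that of HOXD (9.44 to 48.4), while that of HOXA (47.5 to 112) overlapped both. Inside the clusters alone, the count intervals were 9.90 to 27.2 for HOXA, 11.4 to 29.7 for HOXC and 1.62 to 11.7 for HOXD, and all 3 overlapped. In the vehicle list the windows held 4 (1.09 to 10.2), 8 (3.45 to 15.8) and 1 (0.0253 to 5.57) peaks. The vehicle intervals of all 3 clusters overlapped. Overlap is not a test of a difference, and no order is drawn from these counts. Limited to its 3507 peaks of highest −log10 p, the GSK2879552 list held 3, 8 and 0 peaks in HOXA, HOXC and HOXD. At a −log10 q of at least 5 the vehicle list held 0, 4 and 0. Peaks of a window are not independent of each other, so these intervals may be too narrow.

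Chromosome 2 was itself sparser in peaks. The GSK2879552 list held 15.8 peaks per Mb on chromosome 2, 26.1 on chromosome 7 and 26.1 on chromosome 12, each counted to the last peak of the chromosome. The HOXA window was 2.87 times, the HOXC window 3.02 times and the HOXD window 1.48 times as dense as its chromosome. The median local background of all GSK2879552 peaks was 1.25 times the genome-wide value on chromosomes 7 and 12 and 1.06 times on chromosome 2. At the peaks of the windows it was 1.49 times for HOXA, 1.54 times for HOXC and 1.08 times for HOXD. Background thus moved with peak number among the clusters, but it may hold the tags of those peaks. Its part in the difference was not tested. DNA copy number of LNCaP was not examined.

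Against equal windows of the same chromosome, HOXC ranked first on chromosome 12 in both lists when the windows were tiled from its own. None of the 401 other windows of 317 kb held as many GSK2879552 peaks as HOXC (0.0%, which allows a share of up to 0.748%), and the highest of them held 24. In the vehicle list, again none of the 401 (0.0%) reached the 8 peaks of HOXC, and the highest held 5. For HOXA, 4 of 491 windows of chromosome 7 (0.815%) held at least its 23 GSK2879552 peaks, and 3 of 491 (0.611%) at least its 4 vehicle peaks. For HOXD, 198 of 756 windows of chromosome 2 (26.2%) held at least its 7 GSK2879552 peaks, and 115 of 756 (15.2%) at least 1 vehicle peak. The median window held 8 GSK2879552 peaks on chromosomes 7 and 12 and 5 on chromosome 2. With the windows shifted by 50% of their length, 2 of 397 (0.504%) held at least 25 GSK2879552 peaks, 31 at most, and still none of 397 reached 8 vehicle peaks. At a −log10 q of at least 5, 1 of 401 (0.249%) reached the 4 vehicle peaks left in HOXC. These are ranks within 1 library each, not tests.

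**Figure D1:**
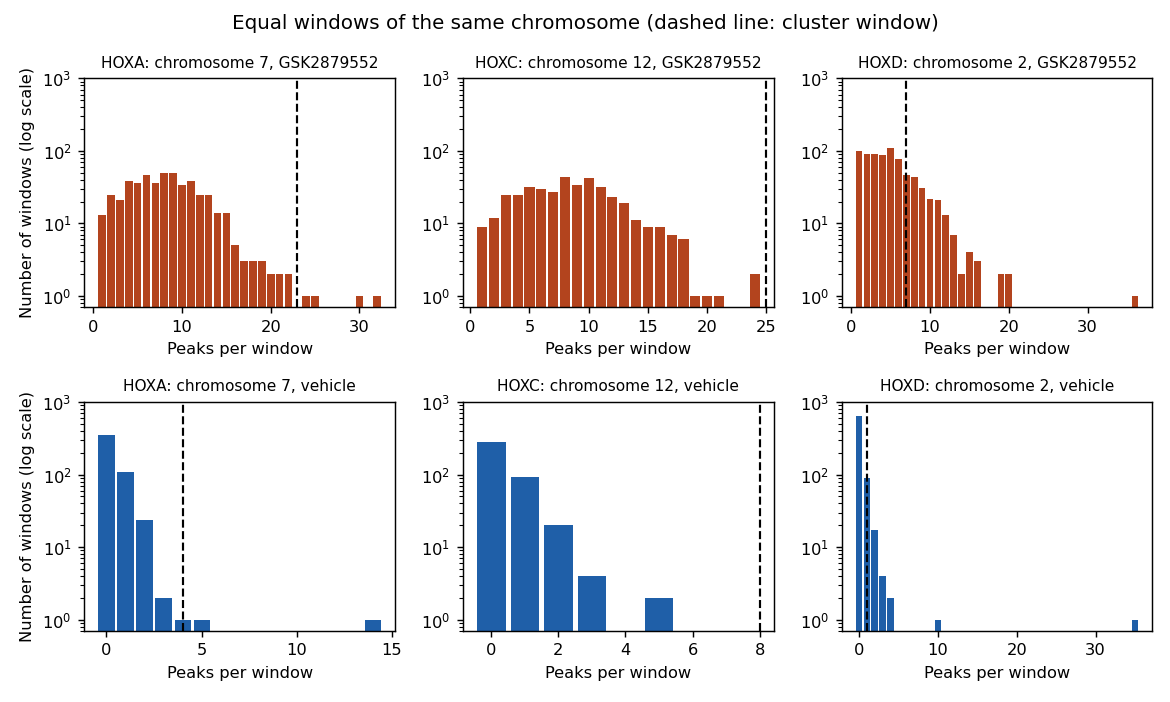
Number of equal windows (vertical axis, log scale) by HOXB13 peaks per window (horizontal axis) on the chromosome of each cluster, with the GSK2879552 list above and the vehicle list below. Windows were tiled from the cluster window. The dashed line is the cluster window, beyond every bar for HOXC (25 and 8 peaks), in the upper tail for HOXA (23 and 4) and among the common values for HOXD (7 and 1).

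The windows above HOXA on chromosome 7 were not alike. Those at 61.74 to 62.04 Mb and 57.74 to 58.05 Mb held 32 and 30 GSK2879552 peaks, and their local backgrounds had medians of 2.50 and 2.53 times the genome-wide one. Those at 89.68 to 89.99 Mb and 42.08 to 42.39 Mb held 25 and 24, with 1.66 and 1.36 times. HOXA had the highest median fold enrichment of these 5 windows, 4.78, against 3.92, 3.87, 4.05 and 4.42. In the vehicle list the window at 61.74 to 62.04 Mb held 14 peaks. Their background had a median of 13.03 times the genome-wide value, against 1.94 times at the 4 vehicle peaks of HOXA.

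Most peaks lay inside the clusters and not in the flanks. Of the 55 GSK2879552 peaks, 41 had their summit within a cluster, 17 in HOXA, 19 in HOXC and 5 in HOXD, although the flanks are longer than each cluster. The flanks on the group 13 side held 2, 4 and 1 peaks in HOXA, HOXC and HOXD, and the flanks on the other side 4, 2 and 1. Inside HOXA and HOXC a summit followed the last after a median of 5.00 and 4.73 kb, at most 11.9 and 14.5 kb. In HOXD the median was 11.3 kb. Of the vehicle peaks 11 lay in the clusters, and the 2 others in the HOXC flanks. With windows as long as the cluster alone, 1 of 1268 windows for HOXA, none of 985 for HOXC (which allows a share of up to 0.305%) and 137 of 1710 for HOXD (8.01%) held as many GSK2879552 peaks.

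**Figure D2:**
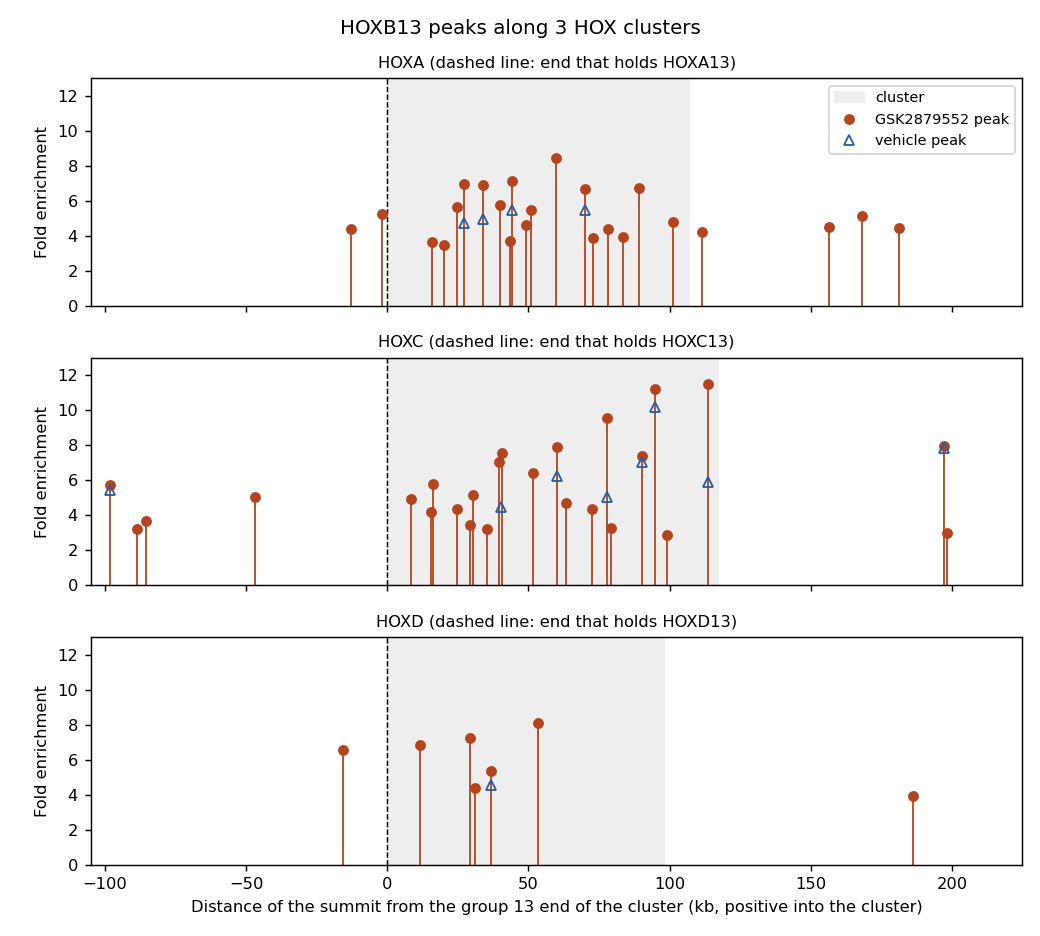
Fold enrichment at the summit (vertical axis) of each HOXB13 peak by its distance in kb from the group 13 end of the cluster (horizontal axis, positive into the cluster), with GSK2879552 peaks as filled circles and vehicle peaks as open triangles. The cluster is shaded, and the dashed line is the end that holds the group 13 gene. The tallest HOXC peaks stand far from HOXC13, and the part of HOXD farthest from HOXD13 is empty. The HOXA peaks inside the cluster lie from 15.8 to 101 kb from the HOXA13 end. Each fold enrichment is relative to its own library.

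Peaks were counted on both sides of the cluster ends, both those that hold the group 13 genes and the opposite ones. Within 5 kb of the group 13 end there was 1 GSK2879552 peak for HOXA13 and none for HOXC13 and HOXD13. Within 10 kb there were 1, 1 and 0, and within 25 kb 5, 4 and 2. At the opposite ends there were 1, 1 and 0 within 5 kb, 2, 1 and 0 within 10 kb, and 4, 3 and 0 within 25 kb, so the group 13 ends did not have fewer by 25 kb. The whole windows of HOXA, HOXC and HOXD held 74.9, 78.8 and 23.5 GSK2879552 peaks per Mb. Whether the ends differ from the windows or from each other was not tested. The HOXA peak lay outside the cluster, 1.69 kb beyond the HOXA13 end, on chromosome 7 at 27241311 to 27241541, and had a fold of 5.28 at a pileup of 20. The next on the cluster side was 15.8 kb inside, at 27223610 to 27224135, with a fold of 3.64. Nearest to the HOXC13 end was a peak 8.54 kb inside the cluster, on chromosome 12 at 54341018 to 54341339, with a fold of 4.93. Outside that end none lay nearer than 46.9 kb. Around the HOXD13 end, the nearest peaks were 11.6 kb inside, on chromosome 2 at 176968971 to 176969295 with a fold of 6.85, and 15.5 kb outside, at 176941809 to 176942129 with a fold of 6.58. None of these had a vehicle peak. The nearest vehicle peak was 27.1 kb from the HOXA13 end, 40.5 kb from the HOXC13 end and 36.8 kb from the HOXD13 end.

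With each cluster divided into 3 equal parts from the group 13 end, HOXA held 5, 7 and 5 GSK2879552 peaks, HOXC 7, 7 and 5, and HOXD 3, 2 and 0. The number of peaks was thus spread over the parts of HOXA and HOXC. In HOXC the median fold enrichment was 4.37 in the part next to HOXC13, 7.07 in the middle and 7.40 in the last. The folds of these parts overlapped, from 3.25 to 5.80, 4.35 to 9.57 and 2.90 to 11.5. The median pileups of these parts were 21, 50 and 70 tags, and the median local backgrounds were 1.34, 2.08 and 2.85 times the genome-wide value. This background may include the tags of the peaks. In HOXA the middle part had the highest median fold, 5.78, against 5.64 next to HOXA13 and 4.38 in the last. There too the folds overlapped, from 3.47 to 6.98 next to HOXA13, 3.73 to 8.48 and 3.87 to 6.75. Differences between the parts were not tested. All 6 HOXC vehicle peaks inside the cluster lay in the middle and last parts, 3 in each. The 4 HOXA vehicle peaks lay in the part next to HOXA13 and in the middle, 2 in each.

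The tallest HOXC peaks were among the tallest of the GSK2879552 list. The peak at 54427206 to 54427697 on chromosome 12, 94.9 kb from the HOXC13 end, had a fold of 11.2, a pileup of 119 and a −log10 p of 84.7, the 55th highest of the 68049 peaks. Its vehicle partner at 54427306 to 54427569 had a fold of 10.2 and a pileup of 27. A peak at 54445810 to 54446307, 113 kb from the HOXC13 end, had the highest fold of the 3 clusters, 11.5, with a pileup of 86. Its vehicle partner at 54446011 to 54446303 had a fold of 5.88, a pileup of 11 and a summit 156 bp away, the widest offset among the shared sites. These 2 sites were the highest of the clusters by −log10 p, and both lay in the part of HOXC farthest from HOXC13.

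Other HOXC peaks were lower. At 54410397 to 54410699 the GSK2879552 fold was 9.57 with a pileup of 65, and the vehicle peak at 54410515 to 54410614 had 5.08 and 9. At 54392672 to 54393140 they were 7.93 and 53, with 6.22 and 13 at the vehicle peak 54392747 to 54392855. Both lay inside the cluster. The site between them by fold lay in the flank beyond it, 197 kb from the HOXC13 end, at 54529775 to 54530073, with 7.97 and 41, and 7.83 and 12 at the vehicle peak 54529811 to 54530016. No summit separated it from the last one in the cluster over 83.9 kb. The vehicle peaks left were at 54422688 to 54422945 with a fold of 7.04 and a pileup of 18, at 54372873 to 54373044 with 4.50 and 9, and at 54234264 to 54234365 with 5.42 and 8. Their GSK2879552 partners had folds of 7.40, 7.55 and 5.71 and pileups of 70, 50 and 26. The remaining 17 of the 25 GSK2879552 peaks had no vehicle peak.

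HOXA folds ran from 3.47 to 8.48, against 2.90 to 11.5 in HOXC and 3.95 to 8.08 in HOXD. The highest HOXA fold was 8.48 at 27179817 to 27180117 on chromosome 7, 59.8 kb from the HOXA13 end, with a pileup of 46. No vehicle peak overlapped it. The next, at 27195435 to 27195703, had 7.15 and a pileup of 57, the highest in HOXA, and its vehicle peak at 27195533 to 27195650 had 5.46 and 12. The peak at 27212419 to 27212904 had 6.98 and 42, with 4.74 and 8 at the vehicle peak 27212528 to 27212672. The peak at 27205177 to 27205861 had 6.89 and 38 and was the widest of the clusters at 685 bp, and its vehicle peak at 27205695 to 27205808 had 4.95 and 8. The fifth by fold, at 27150274 to 27150657, had 6.75 and 29 and no vehicle peak. The fourth vehicle peak of HOXA, at 27169419 to 27169556 with 5.49 and 8, overlapped a GSK2879552 peak with 6.69 and 36. The vehicle pileups of HOXA ranged from 8 to 12, around the median of 9 over the vehicle list.

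HOXD had few GSK2879552 peaks, and 5 of 7 reached a fold of 5, beside 31.8% of all those of chromosome 2. The median local background of the 7, 1.08 times the genome-wide value, was near the 1.06 times of that chromosome. The highest fold was 8.08 at 177010768 to 177011153 on chromosome 2, 53.5 kb from the HOXD13 end. It had a pileup of 30 over 1.02 times the genome-wide background. Next came 176986713 to 176986994 with 7.22 and a pileup of 28, and the 2 peaks nearest the HOXD13 end, with 25 tags inside and 31 outside. The only site with a vehicle peak was not among the highest. At 176994209 to 176994484 the GSK2879552 fold was 5.38 with a pileup of 21, and the vehicle peak at 176994254 to 176994421 had 4.55 and 7. No other vehicle peak lay in the window, and the nearest beyond its edges were 1639 and 2141 kb away. Between the peak 53.5 kb from the HOXD13 end and the next, 186 kb from it, no summit occurred over 133 kb.

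GSK2879552 peaks at the clusters had a higher median fold than all peaks of their chromosomes. The median fold of the GSK2879552 peaks was 4.78 in HOXA (quartiles 4.29 and 6.23), 5.07 in HOXC (3.67 and 7.40) and 6.58 in HOXD (4.87 and 7.04), beside 4.22, 4.22 and 4.43 for all peaks of chromosomes 7, 12 and 2. A fold of at least 5 was reached by 29 of the 55 peaks, 52.7% (exact 95% binomial interval 38.8 to 66.3), beside 26.6% of all GSK2879552 peaks. Over all GSK2879552 peaks of chromosomes 7, 12 and 2 the shares were 25.6, 26.1 and 31.8%. In the windows it was reached by 11 of 23 in HOXA, 13 of 25 in HOXC and 5 of 7 in HOXD. Their intervals of 26.8 to 69.4%, 31.3 to 72.2% and 29.0 to 96.3% overlapped. The clusters were not tested against each other, and no order is drawn. The median pileups were 24, 26 and 25 tags. In width, 19 of the 55 peaks reached 300 bp, 34.5% (22.2 to 48.6), beside 18.3% of all peaks, and 18 of these 19 lay inside a cluster. For the vehicle list the median fold was 5.20 in HOXA and 6.05 in HOXC, beside 5.90 on chromosomes 7 and 12, and 9 of the 13 vehicle peaks reached a fold of 5, beside 80.6% of all vehicle peaks.

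Peaks with a −log10 p of at least 20, a limit chosen after the values were seen, made up 15 of the 55, 27.3% (16.1 to 41.0), beside 7.23% of all GSK2879552 peaks. There were 6 in HOXA, 8 in HOXC and 1 in HOXD. All but 1 lay inside a cluster, and none lay nearer than 27.2 kb to a group 13 end. The local background at these 15 had a median of 2.08 times the genome-wide value, against 1.27 times at the other 40. The 1 peak of HOXD went the other way, with 1.02 against 1.09 times at the other HOXD peaks. Since the background may include the peaks' own tags, it is not a separate measure, and its part was not tested.

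Every vehicle peak at the clusters lay on a GSK2879552 peak, as did most vehicle peaks of the whole list. Each of the 13 vehicle peaks shared at least 1 bp with a GSK2879552 peak, and each had a partner of its own. This share of 100% had an exact binomial interval of 75.3 to 100%, which holds the 91.2% of all vehicle peaks. The clusters are thus not set apart from the whole vehicle list by it. Seen from the GSK2879552 list, 13 of 55 peaks had a vehicle peak, 23.6% (13.2 to 37.0), beside 4.59% of all GSK2879552 peaks. With overlap of 50% of both peaks required, 5 of 55 had one, 9.09%, beside 1.54% of all, with 0 of 23 in HOXA, 4 of 25 in HOXC and 1 of 7 in HOXD. With 1 bp, the share was 17.4% (4.95 to 38.8) in HOXA, 32.0% (14.9 to 53.5) in HOXC and 14.3% (0.361 to 57.9) in HOXD. The 3 intervals overlapped, the clusters were not tested against each other, and none is set apart in this share. The share went with peak height. With a fold of at least 5, 13 of 29 had a vehicle peak, beside 13.7% of all such peaks, and under 5 none of 26 did (which allows a share of up to 11.5%), beside 1.27%. At a −log10 p of at least 20, 11 of 15 had one, beside 39.9%, and below it 2 of 40, beside 1.83%.

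At the 13 shared sites the summits lay a median of 35 bp apart, from 1 to 156 bp, beside 30 bp over all 3199 such pairs. The vehicle pileup ranged from 7 to 27 tags and the GSK2879552 pileup from 21 to 119. Each pileup divided by its own genome-wide background gave a vehicle to GSK2879552 ratio with a median of 1.40, from 0.807 to 2.104. Over all pairs the median was 1.58 with quartiles of 1.202 and 2.24. The ratio was above 1 at 11 of the 13 sites, beside 87.8% of all pairs. Only sites that passed in the vehicle list enter, which favours high vehicle values, so the ratio does not compare occupancy between the treatments.

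**Figure D3:**
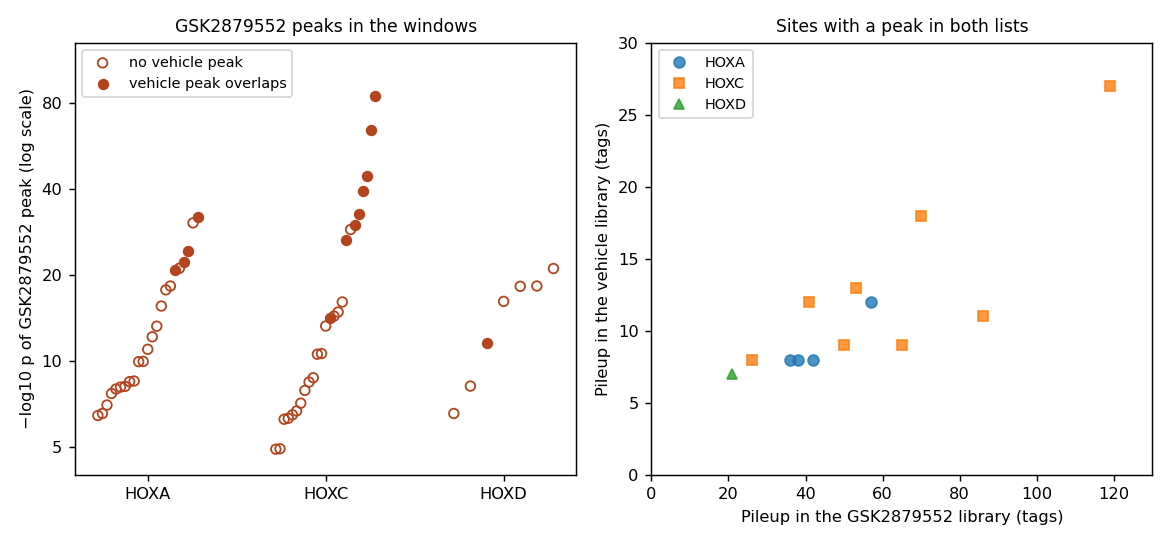
Left, −log10 p (vertical axis, log scale) of the GSK2879552 peaks of each window in ascending order, filled where a vehicle peak overlaps. The filled circles sit towards the top of HOXA and HOXC, where 4 of 23 and 8 of 25 are filled, and 1 of 7 is in HOXD. Right, pileup in tags in the vehicle library (vertical axis) against that in the GSK2879552 library (horizontal axis) at the 13 sites with a peak in both lists. One HOXC site stands apart at 27 and 119 tags.

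The windows ended 100 kb from each cluster, and the peaks nearest their edges were as follows. For HOXA the GSK2879552 peaks just inside the low and high edges had folds of 4.48 and 4.42, and those just outside 3.81 and 6.11. For HOXC they were 5.71 and 3.02 inside, and 3.02 and 5.996 outside. For HOXD they were 6.58 and 3.95 inside, and 4.73 and 3.47 outside. Of the vehicle peaks, 1 lay 1.74 kb inside the low edge of HOXC, and 1 lay 5.19 kb beyond its high edge with a fold of 7.19.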

How the data were processed

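HOXB13 ChIP-seq of LNCaP cells came as 1 deposited peak list per treatment. MACS2 2.1.2, BWA 0.7.2 and SAMtools 0.1.18 are listed, without role, per the submitters' processing notes, as are GRCh37 and hg19. Whether an input control was used is not given here. The score that the authors deposited equals −log10 q times 10 without decimals. Fold enrichment is the authors' ratio at the summit, and it is compared within a list only. The −log10 p-values and −log10 q-values are the authors' deposited values, and the deposited summit offset gave positions.

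Peaks on chromosomes 1 to 22, X and Y were used, leaving out 676 and 215. Pileup k and background λ followed from the Poisson p-value and fold, taken as (k + 1)/(λ + 1), with a whole k within 0.001 for 100% of peaks. Windows were tiled outward from each cluster window. Windows without a GSK2879552 peak were left out, 25 on chromosome 7, 18 on chromosome 12 and 58 on chromosome 2 at the full window length. Overlap meant at least 1 bp. Routines were tested on simulated data. Python 3.11.15, pandas 2.3.3 and SciPy 1.17.1 were used.

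The 5 peaks of highest fold per cluster, all vehicle peaks and those nearest the group 13 end and window edges are named. Members and lists were chosen with earlier results of these data known.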

Additional observations from a re-analysis of the deposited data

How the results depend on the processing

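No paired analysis was possible because each treatment has 1 peak list, made from both lanes, and no replicate could be left out. Of 70 values under other settings, 52 stayed within their limits (1.5 times a count, or the binomial interval of a share, rank or median) and 18 moved. With the GSK2879552 list limited to the length of the vehicle list, HOXA, HOXC and HOXD held 3, 8 and 0 peaks, and every window of chromosome 2 held at least as many as HOXD (100%). At a fold of at least 5, HOXA and HOXC held 11 and 13 GSK2879552 peaks and HOXA and HOXD 2 and 0 vehicle peaks. At a −log10 q of at least 5, HOXA, HOXC and HOXD held 0, 4 and 0 vehicle peaks, so the vehicle ranks of HOXA and HOXD became 100% and 100%. The HOXD rank in the GSK2879552 list became 11.5%. Each rank of 100% here follows from a count of 0 alone, since every window then holds at least as many. With the cluster alone, windows with at least as many GSK2879552 peaks were 0.0789% for HOXA and 8.01% for HOXD, and with vehicle peaks 7.49% for HOXD. When each peak had to cover 50% of the other, no HOXA peak (0.0%) and 16.0% of the HOXC peaks had a vehicle peak. The HOXC rank was 0.504% with shifted windows in the GSK2879552 list, 0.249% at that −log10 q in the vehicle list and 0.0% in the other settings run. The vehicle peaks rest on 7 to 27 tags, which limits every vehicle value.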

Other observations

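The window of chromosome 12 next below that of HOXC, at 53.92 to 54.23 Mb, held 21 GSK2879552 peaks. Among the windows of 317 kb it came after HOXC with 25 and the windows at 38.05 to 38.37 Mb and 65.02 to 65.34 Mb with 24 each. The window next above, at 54.55 to 54.87 Mb, held 3 vehicle peaks. The median fold of the 25 HOXC peaks, 5.07, was above those of these other windows, 4.48, 3.95 and 4.09 in the order named. These windows were picked out after their values were seen.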
